A study of Mus musculus with 79 samples.

Results

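Malat1, Neat1 and 6 host genes of small nucleolar RNAs (snoRNAs), Snhg1, Snhg3, Snhg11, Snhg12, Gas5 and Zfas1, were followed in mouse embryonic stem cells treated with retinoic acid (RA). The 8 genes were chosen by symbol as long noncoding RNAs made or kept in the nucleus. The rule uses no measured value, but the choice was made with earlier results of these data known. Together they are 9 deposited transcripts, since Neat1 is listed in a short and a long form, out of 29076 transcripts in the E14 table, 35326 in the SCC1-mAID table and 29039 in the clone table. By symbol they are 8 of 19526, 21193 and 19482 genes with reads. The 8 genes passed the filter on low counts in each of the 3 tables.

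The study followed gene activation by RA, and 3 sets of libraries were used here. Total RNA was measured in wild-type E14 stem cells after 2, 4, 6, 48 and 72 h of 1 uM RA (n = 4 libraries each) and 24 h (n = 3), with untreated cells at 0 h (n = 2). The last time is 72 h in the library titles and 74 h in another label. Nuclear RNA was measured in SCC1-mAID cells, genotype E14;Rosa26::Tir1;Scc1-mAID-eGFP, given auxin plus RA, auxin, RA or neither (n = 3 each). Tir1 and the degron tag, which the untreated cells carry too, let auxin destroy SCC1, a subunit of the cohesin ring. Auxin (500 uM) acted for 6 h, and RA, where given, joined it 2 h in and acted for 4 h. Nuclear RNA was further measured in clones E3 and H12, labelled as carrying a deletion in the Hoxb locus (genotype E14;HoxTransEdel), and in the wild-type clone G4 (E14;HoxTransEwt), untreated (0 h) and after 2, 4, 6, 24, 48 or 74 h of RA, with n = 2 libraries per clone and time. The wild type thus rests on 1 clone and the deletion on 2, and a difference of genotype cannot be told apart from one between single clones.

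MALAT1 is an abundant, unspliced transcript that collects in nuclear speckles, the bodies that store splicing factors, and its transcript is kept in the nucleus. NEAT1 is made next to it as a short and a long isoform that share their start, and the long isoform is the scaffold around which paraspeckles assemble. The SNHG genes, GAS5 and ZFAS1 are spliced hosts. Their introns are trimmed into snoRNAs, many of which, but not all, guide the modification of ribosomal RNA. Most of the hosts' spliced exons carry no long reading frame and are degraded by nonsense-mediated decay in the cytoplasm. Many hosts, GAS5 among them, start like ribosomal protein genes, with a run of pyrimidines at the first base (a terminal oligopyrimidine tract).

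In the coordinates of the mm10 build, Malat1 lies on chr19:5795690-5802671 (minus strand, 6982 bases with no intron), and the long Neat1 transcript lies nearby on chr19:5824710-5845478 (minus strand, 20769 bases, no intron), with the short one over the first 3185 bases. Snhg1 lies on chr19:8723487-8726326 (plus strand), Snhg3 on chr4:132351933-132353686 (minus), Snhg12 on chr4:132308678-132311024 (plus), Snhg11 on chr2:158375638-158386145 (plus), Zfas1 on chr2:167062934-167065862 (plus) and Gas5 on chr1:161035166-161038537 (plus). GENCODE annotates 8 snoRNA loci inside Snhg1, 2 inside Snhg3, 2 inside Snhg11, 4 inside Snhg12, 9 inside Gas5 and 3 inside Zfas1, and none inside Malat1 or Neat1. One of the 9 in Gas5 is annotated as a snoRNA under the name of a microRNA, Mir5117.

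The sequences around the starts show which members carry a pyrimidine run, and are given for the 7 of 8 members that the RefSeq promoter table (GRCm38.p6, the assembly behind mm10) holds. Each stretch has 20 bases before the annotated start and 30 from it on, written on the gene's own strand. Capitals mark a C followed by at least 4 bases that are C or T, where that run begins within 5 bases of the start.
Snhg3 (chr4:132353657-132353706, minus): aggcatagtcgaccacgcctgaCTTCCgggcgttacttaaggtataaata
Snhg12 (chr4:132308658-132308707, plus): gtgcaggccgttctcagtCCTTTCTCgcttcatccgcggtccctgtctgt
Gas5 (chr1:161035146-161035195, plus): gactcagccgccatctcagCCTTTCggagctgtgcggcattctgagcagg
Snhg1 (chr19:8723467-8723516, plus): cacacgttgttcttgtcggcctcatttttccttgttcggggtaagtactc
Zfas1 (chr2:167062914-167062963, plus): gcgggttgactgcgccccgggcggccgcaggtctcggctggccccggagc
Snhg11 (chr2:158375693-158375742, plus): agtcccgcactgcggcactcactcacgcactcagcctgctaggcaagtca
Malat1 (chr19:5802643-5802692, minus): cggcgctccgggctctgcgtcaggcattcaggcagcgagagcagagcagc
The run was found in Snhg3, Snhg12 and Gas5, which is 3 of 7 members, against 18.3% of 32851 windows of the same length in the whole table. Counted by gene, it was found in 5 of 13 other noncoding snoRNA hosts (38.5%) and in 3 of 12 protein-coding hosts. A gene can have several windows, whereas the 18.3% counts single windows and each member was scored on the window printed above. The shares of these other hosts are thus not on the same measure as the 18.3% or the 3 of 7 members. No run was found in Snhg1 or Zfas1 within 5 bases of these starts, and the RefSeq start of Snhg11 lies 75 bases downstream of the deposited one. A match to these letters is a description of the window and not of its use.

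The snoRNAs that the host introns yield, and that were counted as genes of their own in the deposited tables or fill much of Snhg3, are given next from GENCODE (GRCm38, written on the host's strand). In box C/D snoRNAs the capitals mark the C box (TGATGA) and the D box (CTGA); in the box H/ACA snoRNAs of Snhg3 they mark the ACA box near the end. For Snord22 a D box but no exact TGATGA was found. The deposited entries are shorter for Snord12 (66 bases), Snord47 (65 bases) and Snord99 (56 bases) than these loci (90, 77 and 74 bases).
Snord22 (Snhg1, chr19:8725866-8725991): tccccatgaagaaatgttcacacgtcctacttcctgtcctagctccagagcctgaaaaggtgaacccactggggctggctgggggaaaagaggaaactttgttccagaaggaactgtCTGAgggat
Snord12 (Zfas1, chr2:167065276-167065365): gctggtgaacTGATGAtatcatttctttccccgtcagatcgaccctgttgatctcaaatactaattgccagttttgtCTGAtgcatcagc
Snord47 (Gas5, chr1:161038082-161038158): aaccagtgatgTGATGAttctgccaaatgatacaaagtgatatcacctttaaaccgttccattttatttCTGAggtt
Snord99 (Snhg12, chr4:132310691-132310764): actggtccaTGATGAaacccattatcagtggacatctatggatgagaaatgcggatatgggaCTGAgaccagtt
Snora73a (Snhg3, chr4:132352775-132352979): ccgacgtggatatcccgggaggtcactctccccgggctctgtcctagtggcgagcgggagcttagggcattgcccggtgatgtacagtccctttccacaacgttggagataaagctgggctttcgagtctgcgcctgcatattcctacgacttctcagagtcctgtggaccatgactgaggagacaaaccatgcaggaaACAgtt
Snora73b (Snhg3, chr4:132352322-132352526): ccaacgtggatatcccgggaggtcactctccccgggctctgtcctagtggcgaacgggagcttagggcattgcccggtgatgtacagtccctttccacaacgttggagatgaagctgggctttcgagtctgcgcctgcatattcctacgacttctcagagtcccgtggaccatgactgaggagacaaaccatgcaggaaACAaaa
Snora73a and Snora73b differ at 7 of 205 positions (96.6% identity). Reads from either cannot always be placed, and how the authors' counting treated reads with several matches is not given in the sources used here, so the level of Snhg3 is uncertain in tables that count introns.

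Levels are given as CPM, each gene's share of the reads in genes on the usual scale, adjusted between libraries by TMM. Reads in genes ran from 2352114 to 21082331 in E14 libraries, being highest at 0 h (16236549 and 21082331) and 2352114 to 4123211 from 24 h on. They ran from 3126363 to 7499040 in SCC1-mAID libraries and from 4754309 to 10450047 in clone libraries. The E14 table counts exonic reads, whereas both nuclear tables count reads over the whole span with introns, so levels are compared within a table. Whether counting used the strand is not stated. The labels do not say that replicates came from separate cultures, so p-values measure the spread between these libraries. In bulk RNA, fewer cells of a type and less RNA per cell cannot be told apart. The summed level of 7 pluripotency markers was 418 to 1262 CPM in E14 cells at 72 h, against 2979 to 3025 CPM at 0 h, and 66.7 to 159 CPM in the clones at 74 h, against 1838 to 2334 CPM at 0 h. Of the 7, 6 fell in E14 cells and 7 in the clones by these hours. The summed level of 4 neural progenitor markers was 116 to 292 CPM in E14 cells at 72 h, against 92.2 to 109 CPM at 0 h, and 283 to 494 CPM in the clones at 74 h, against 26.2 to 135 CPM at 0 h (3 and 4 of 4 rose). That of 4 endoderm markers was 65.2 to 120 CPM in E14 cells at 72 h, against 3.26 to 3.49 CPM at 0 h, and 43.2 to 284 CPM in the clones at 74 h, against 4.11 to 11.5 CPM at 0 h (4 of 4 rose in both). At 0 h there are only replicates 3 and 4. In E14 replicates 1 and 2 the neural sum was 176 to 198.5 CPM at 2 to 6 h. In replicates 3 and 4 it was 50.2 to 96.5 CPM at those times. At 72 h it was 116 and 200 CPM in replicates 1 and 2, and 292 and 236 CPM in replicates 3 and 4. The tested mesoderm markers summed to 19.5 to 37.7 CPM in replicates 1 and 2 at 2 to 6 h, and to 2.49 to 4.88 CPM in replicates 3 and 4. The part of these markers in the levels described here was not tested. Of 5 fibroblast markers, 4 passed the filter and were summed. Their sum was 304 to 839 CPM in replicates 1 and 2 of E14 cells at 2 to 6 h. In replicates 3 and 4 it was 54.0 to 91.9 CPM, against 95.2 and 97.6 CPM at 0 h, where the labels give replicates 3 and 4 alone. The sum was 524 to 656 CPM at 48 h and 426 to 622 CPM at 72 h. Of the 4, 1 rose and 1 fell at 48 h, and 2 rose and 1 fell at 72 h. In the clones the sum was 123 to 918 CPM at 74 h, against 17.3 to 53.3 CPM at 0 h, and its part in the results was not tested. RNA counts do not measure the loss of SCC1 protein, and the labels do not give the extent of the Hoxb deletion, so neither was checked.

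Per kilobase of exon, Malat1 was the most abundant member in untreated E14 cells, at 975 ± 61.9 CPM per kb (mean ± SD, n = 2). Snhg1 followed at 696 ± 18.1, Snhg3 at 290 ± 46.2, Gas5 at 256 ± 4.82, Snhg12 at 190 ± 21.5, Zfas1 at 159 ± 11.8, Snhg11 at 12.2 ± 0.133 and Neat1 at 7.95 ± 0.804 CPM per kb. Snhg3 and Gas5 overlapped between libraries, and the other neighbours in this order did not. The exon length inferred for Gas5, 2554 bases, is most of its span of 3372, unlike that of Snhg1, with 476 of 2840. In the nuclear RNA of untreated SCC1-mAID cells, per kilobase of span, Malat1 stood at 339 ± 14.2 and Snhg3 at 259 ± 112.5 CPM per kb, with overlapping libraries (n = 3), while the other hosts stood between 3.80 and 58.0 and Neat1 at 2.50 CPM per kb. In clone G4 at 0 h, Malat1 stood at 679 ± 20.6 and Snhg3 at 124 ± 16.4 CPM per kb (n = 2), Gas5 at 89.9, Snhg1 at 73.3, Snhg12 at 43.9, Zfas1 at 32.2, Neat1 at 6.34 and Snhg11 at 3.39 CPM per kb. Malat1 and Snhg1 thus stood above Snhg3 per exonic length in total RNA, and Malat1 alone per span in clone G4, whereas the libraries of Malat1 and Snhg3 overlapped in SCC1-mAID cells.

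In E14 total RNA, 5 of the 6 snoRNA hosts fell to a fraction of their first level over the days of RA, Neat1 and Snhg11 rose at 48 h, and Malat1 was not called at any time. A call means an adjusted p below 0.05 in edgeR's quasi-likelihood test, adjusted by Benjamini-Hochberg over all genes of the table; fold changes are log2, with their standard error. At 2, 4 and 6 h, none of the 8 members was called against 0 h, and none had an unadjusted p below 0.05 in the same test; by DESeq2, too, none was called. Calls were made for 0.497%, 2.44% and 3.96% of all genes at these times. At 24 h, 5 members had fallen and 1 had risen, where 13.3% of all genes fell and 14.1% rose. At 48 h, 5 had fallen and 2 had risen, where 26.9% of all genes fell and 28.9% rose. At 72 h, 5 had fallen and none had risen, where 29.3% of all genes fell and 30.4% rose. The members' median log2 fold change was -0.81, -1.54 and -1.91 at 24, 48 and 72 h, beside 0.02, 0.01 and 0.00 over all genes. With replicates 3 and 4 only, a choice made after values were seen, 0, 0 and 0 members were called at 2, 4 and 6 h, 6 at 24 h, 7 at 48 h and 7 at 72 h. With the authors' size factors, 5886 genes were higher and 2800 lower at 72 h, in place of 4587 and 4423, with the median of all genes at 0.27, and at 6 h 247 were higher and 390 lower, in place of 326 and 271. In the authors' deposited table, Malat1 is classed as stably active, Neat1 and Snhg11 as near stable, and the other 5 hosts as downregulated.

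In the nuclear RNA of the clones, Snhg1, Snhg12, Gas5 and Zfas1 fell from 24 h on, Snhg11 and Neat1 rose at 24 and 48 h, Malat1 was slightly lower, and Snhg3 was not called at any time. The sizes of these changes were not tested against those in E14 cells. Averaged over the 3 clones, 1 member was called at 2 h and 1 at 4 h, where 20.7% and 20.6% of all genes were. At 6 h, 3 had fallen and 1 had risen (10.0% and 10.3% of all genes). At 24 h, 5 had fallen and 2 had risen (27.2% and 28.3% of all genes). At 48 h, again 5 had fallen and 2 had risen (34.8% and 35.0%), and at 74 h, 5 had fallen and 1 had risen (37.2% and 36.5%). Within single clones at 74 h, 5 members were called in E3, 5 in H12 and 5 in G4, where 56.2%, 59.5% and 56.3% of all genes were. Snhg1, Snhg12, Gas5 and Zfas1 were lower in each of the 3 clones.

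Malat1, the speckle RNA, was not called at any time in E14 cells. In E14 cells it had 7109.9 and 6499 CPM at 0 h, between 5622 and 10224 CPM at 2 to 6 h, 7692, 5383.5 and 5863 CPM at 24 h and 7050.5, 6743.5, 8118 and 7157 CPM at 48 h. At 72 h it had 4745, 9265, 5235 and 4516 CPM. Replicate 2 at 72 h stood far above the other 3, which lay below both 0 h libraries. The change at 72 h was -0.20 ± 0.24 (adjusted p = 0.504), and its sign turned to 0.04 with the authors' size factors. Without replicate 2 at 72 h it was -0.49 ± 0.20 (adjusted p = 0.0361), a call, and with replicates 3 and 4 only, the numbers that the 0 h libraries carry, it was -0.50 ± 0.18 (adjusted p = 0.0233).

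In the clones, Malat1 was slightly lower from 4 h on. Clone E3 had 4187 and 3127 CPM at 74 h, against 5313 and 5774 CPM at 0 h. Clone H12 had 3262.5 and 4335 CPM at 74 h, against 3966 and 4675 CPM at 0 h. For G4 libraries of Malat1, the values were 3277 and 4248 CPM at 74 h, against 4642 and 4845 CPM at 0 h. The libraries of E3 and G4 did not overlap between the times, and those of H12 did. Averaged over the clones, Malat1 fell, with log2 fold changes of -0.30 ± 0.10 at 4 h, -0.37 ± 0.10 at 6 h, -0.37 ± 0.10 at 24 h, -0.25 ± 0.10 at 48 h and -0.37 ± 0.10 at 74 h (adjusted p = 0.0354, 0.0109, 0.00324, 0.0366 and 0.00193). The call at 4 h was lost when any 1 of 9 libraries was left out (adjusted p up to 0.144; exceptions were E3 and G4 replicate 1 at 4 h and H12 replicate 1 at 0 h). The call at 48 h was lost without any 1 of 10 of the 12 libraries (up to 0.214; exceptions were H12 replicate 1 at 0 h and replicate 2 at 48 h), and the call at 6 h without E3 replicate 2 at 6 h (0.0602). The calls at 24 and 74 h were kept without any single library. Within clones at 74 h, Malat1 was called in E3 (-0.60 ± 0.18, adjusted p = 0.00552), a call lost without E3 replicate 2 at 74 h (adjusted p = 0.16).

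Neat1, the paraspeckle scaffold, was higher at 48 h in both sets. In E14 cells it had 153 and 177 CPM at 0 h, between 92.2 and 189 CPM at 2 to 6 h and 223, 154 and 154 CPM at 24 h. It then had 458, 326, 519 and 344 CPM at 48 h and 179, 377, 109.5 and 103 CPM at 72 h. All 4 libraries at 48 h lay above both at 0 h, whereas the libraries at 72 h overlapped those at 0 h, with replicate 2 high and replicates 3 and 4 below. Neat1 rose at 48 h (1.32 ± 0.40, adjusted p = 0.00848), a call lost without 0 h replicate 3 (adjusted p = 0.0767). At 72 h the change was 0.22 ± 0.38 (adjusted p = 0.635); without 72 h replicate 2 it was -0.34 ± 0.27 (adjusted p = 0.294), and with replicates 3 and 4 only it was called as a fall, -0.65 ± 0.24 (adjusted p = 0.0281).

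Among the clones, H12 had the highest single library of Neat1 at 48 h. Neat1 in E3 libraries was at 229.5 and 216 CPM at 48 h, against 163 and 230.2 CPM at 0 h. Neat1 in H12 libraries was at 248 and 419 CPM at 48 h, against 97.9 and 110.2 CPM at 0 h, and G4 had 179 and 190.3 CPM at 48 h, against 137 and 127 CPM at 0 h. The libraries of the 2 times did not overlap in H12 or G4 and did in E3. Averaged over the clones, Neat1 fell at 6 h (-0.50 ± 0.16, adjusted p = 0.0293) and rose at 24 h (0.51 ± 0.16, adjusted p = 0.00856) and 48 h (0.78 ± 0.16, adjusted p = 0.000106), and at 74 h the change of 0.20 ± 0.16 was not called (adjusted p = 0.256). The fall at 6 h was lost without any 1 of 7 of the 12 libraries (adjusted p up to 0.127; exceptions were E3 replicate 1 at 0 and 6 h, G4 replicate 1 at 6 h, H12 replicate 1 at 0 h and H12 replicate 2 at 6 h).

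At 74 h, Neat1 was called higher in H12 and not in E3 or G4. It had 196 and 197.5 CPM in H12 at 74 h, against 97.9 and 110.2 CPM at 0 h. It had 181 and 144 CPM in E3 and 125 and 132 CPM in G4 at 74 h. No library of H12 overlapped between the times. The change was 0.92 ± 0.28 (adjusted p = 0.00671) in H12, a call lost without H12 replicate 1 at 0 h (adjusted p = 0.0562). It was -0.27 ± 0.28 (adjusted p = 0.416) in E3 and -0.03 ± 0.28 (adjusted p = 0.933) in G4. The differences between these responses were not called: -1.20 ± 0.40 (adjusted p = 0.0917) for E3 minus H12, 0.95 ± 0.40 (adjusted p = 0.116) for H12 minus G4 and -0.24 ± 0.40 (adjusted p = 0.833) for E3 minus G4. None of the 8 members was called in these 3 differences, where 4.29%, 12.4% and 0.578% of all genes were; 1 member in each had an unadjusted p below 0.05 in the same edgeR test. Markers of endoderm, 4 genes, summed to 283 to 284 CPM in H12 and 69.3 to 86.0 CPM in E3 at 74 h, against 43.2 to 64.9 CPM in G4. The 4 tested fibroblast markers summed to 914 to 918 CPM in H12 and 438 to 468 CPM in E3 at 74 h, against 123 to 234 CPM in G4. In the response of H12 minus that of G4, 3 of these 4 were called higher. The part of these markers in the level of Neat1 was not tested.

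The 2 forms of Neat1 were also counted apart, a split chosen after values were seen: reads over the span of the short transcript, which the long one shares, and reads beyond it, which belong to the long one alone. In E14 cells the part beyond had 180.3, 96.3, 221 and 170.2 CPM at 48 h, against 40.7 and 42.5 CPM at 0 h (Neat1_beyond). The shared part had 278, 229.6, 297 and 174 CPM at 48 h, against 113 and 134.5 CPM at 0 h (Neat1_short). Neither part overlapped between the times. At 48 h the part beyond rose (2.01 ± 0.48, adjusted p = 0.00153), as did the shared part (0.99 ± 0.37, adjusted p = 0.0299). In the clones the shared part fell at 2 h (-0.55 ± 0.18, adjusted p = 0.0299), 4 h (-0.55 ± 0.18, adjusted p = 0.0275) and 6 h (-0.51 ± 0.18, adjusted p = 0.0428), while the part beyond was not called at those times (0.46 ± 0.18, -0.10 ± 0.18 and -0.49 ± 0.19; adjusted p = 0.0758, 0.772 and 0.0639). At 24 h the part beyond rose (0.77 ± 0.18, adjusted p = 0.000723) and the shared part did not pass the test (0.22 ± 0.18, adjusted p = 0.301). At 48 h both rose, the part beyond by 0.89 ± 0.18 and the shared part by 0.67 ± 0.17 (adjusted p = 8.99e-05 and 0.00131). The difference between the 2 parts was not tested.

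**Figure D1:**
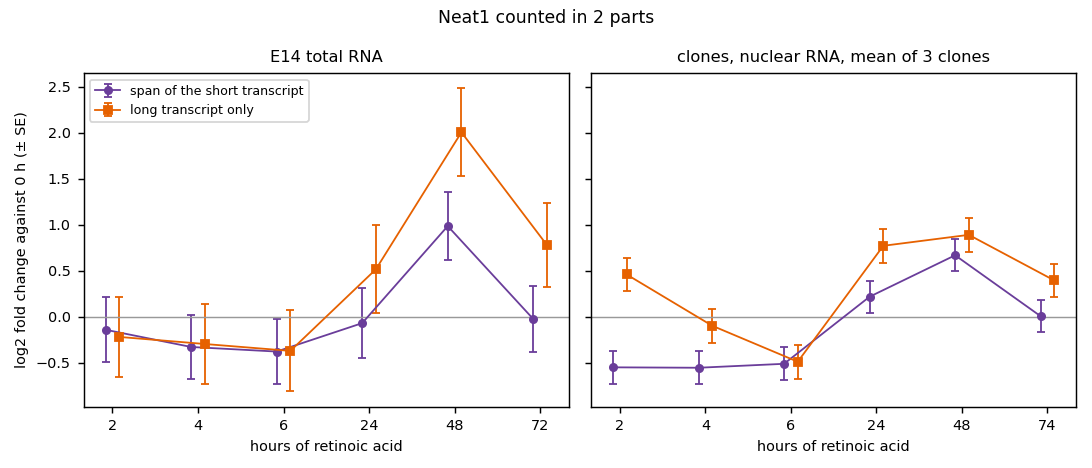
Log2 fold change of Neat1 against 0 h (y axis; points, ± SE) at each time of RA in hours (x axis, times evenly spaced), for reads over the span of the short transcript and for reads on the long transcript beyond it, in E14 total RNA (left) and nuclear RNA averaged over the clones (right). Both parts are highest at 48 h, and at 2 h in the clones the short span is at -0.55 and the rest of the long transcript at 0.46.

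Gas5, the host with most annotated snoRNAs, showed the course shared by 5 hosts. In E14 cells it had 663.5 and 646 CPM at 0 h, between 512 and 1000.3 CPM at 2 to 6 h and 434, 259.9 and 237 CPM at 24 h. It had 215, 177, 199 and 168 CPM at 48 h and 79.8, 190.3, 86.8 and 126 CPM at 72 h. Every library from 24 h on lay below both at 0 h, and 24 h replicate 1 stayed nearest to them. Gas5 fell, with a change of -1.07 ± 0.29 (adjusted p = 0.00949) at 24 h, -1.79 ± 0.27 (adjusted p = 1.31e-05) at 48 h and -2.44 ± 0.27 (adjusted p = 1.88e-07) at 72 h. The call at 24 h was lost without 0 h replicate 3 or 0 h replicate 4 (adjusted p up to 0.054).

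Snhg12, which holds 4 snoRNAs, and Snhg1, which holds 8, fell alongside. Snhg12 had 106 and 124 CPM at 0 h, 78.3, 44.5 and 41.9 CPM at 24 h, 48.7, 29.3, 31.9 and 25.3 CPM at 48 h and 19.4, 31.0, 14.2 and 18.6 CPM at 72 h. Snhg1 had 325 and 337 CPM at 0 h, 239, 147 and 135 CPM at 24 h, 131, 91.1, 129 and 88.6 CPM at 48 h and 70.6, 114, 53.5 and 71.4 CPM at 72 h. In both, no library from 24 h on overlapped 0 h. Snhg12 fell, with log2 fold changes of -1.06 ± 0.24, -1.76 ± 0.23 and -2.46 ± 0.24 at 24, 48 and 72 h (adjusted p = 0.00231, 1.28e-06 and 1.09e-08). Those of Snhg1, which fell too, were -0.93 ± 0.24, -1.59 ± 0.23 and -2.10 ± 0.23 (adjusted p = 0.00642, 3.9e-06 and 6.21e-08).

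Zfas1, host of Snord12 and 2 further snoRNAs, had 111 and 124 CPM at 0 h, 82.5, 46.6 and 43.5 CPM at 24 h, 46.3, 41.5, 35.4 and 35.6 CPM at 48 h and 31.2, 40.5, 23.3 and 29.7 CPM at 72 h in E14 cells. Snhg3, host of Snora73a and Snora73b, had 112 and 141 CPM at 0 h, 93.6, 74.4 and 66.7 CPM at 24 h, 54.6, 40.8, 42.4 and 40.4 CPM at 48 h and 36.1, 38.3, 29.0 and 32.2 CPM at 72 h. In each, all libraries from 24 h on lay below 0 h. Both fell. The log2 fold changes of Zfas1 at 24, 48 and 72 h were -1.02 ± 0.19, -1.57 ± 0.18 and -1.91 ± 0.18 (adjusted p = 0.000227, 6.62e-08 and 1.98e-09), and those of Snhg3 were -0.69 ± 0.15, -1.51 ± 0.14 and -1.90 ± 0.14 (adjusted p = 0.00106, 2.75e-09 and 3.74e-11). The call of Snhg3 at 24 h was lost without 0 h replicate 4 (adjusted p = 0.0519). With that library left out, 3 members were called at 24 h in place of 6.

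Snhg11 took another course: it rose at 24 and 48 h, and its change at 72 h was close to 0. It had 71.8 and 70.7 CPM at 0 h and between 57.3 and 112.5 CPM at 2 to 6 h. It had 135, 108 and 101 CPM at 24 h, 124, 116, 189.7 and 143 CPM at 48 h and 55.8, 109, 62.0 and 57.8 CPM at 72 h. The libraries at 24 and 48 h lay above both at 0 h, and at 72 h replicate 2 alone did. The rise was 0.69 ± 0.25 (adjusted p = 0.046) at 24 h and 1.01 ± 0.25 (adjusted p = 0.00139) at 48 h. The call at 24 h was lost when any 1 of the 5 libraries was left out (adjusted p up to 0.195, without 0 h replicate 4), and the call at 48 h was kept. At 72 h the change was 0.00 ± 0.24 (adjusted p = 0.998).

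**Figure D2:**
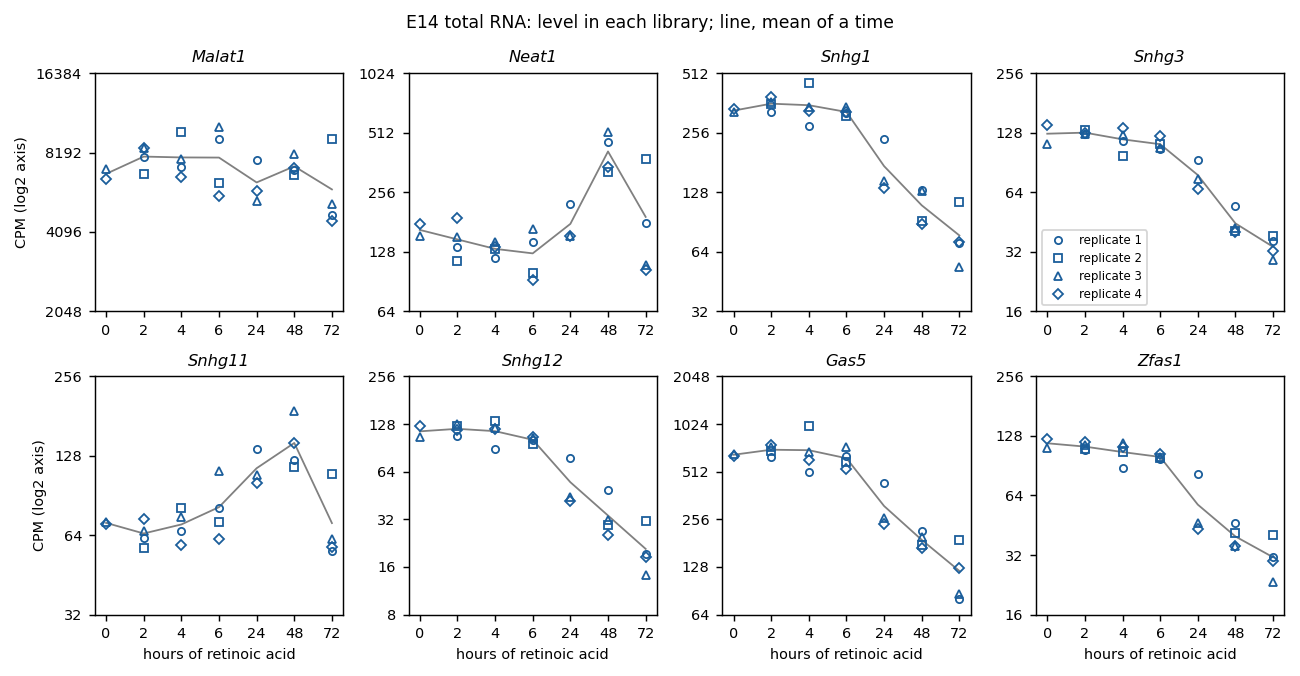
Level of each member in every E14 total RNA library (y axis, CPM on a log2 axis) by hours of RA (x axis, times evenly spaced); marks are replicates and the line is the mean of a time. Snhg1, Snhg3, Snhg12, Gas5 and Zfas1 fall from 24 h on, Neat1 and Snhg11 peak at 48 h, and replicate 2 at 72 h stands high for Malat1, Neat1 and Snhg11.

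In the clones, Gas5 and Zfas1 were lower at 74 h than at 0 h in every library. Gas5 was the more abundant of the 2. In E3 it had 122 and 106 CPM at 74 h, against 356 and 316 CPM at 0 h. In H12 it had 106 and 112.5 CPM at 74 h, against 280.2 and 305 CPM at 0 h. For G4 libraries of Gas5, the values were 122 and 134 CPM at 74 h, against 301 and 305 CPM at 0 h. Each library at 74 h lay below the lowest at 0 h. Zfas1, shorter and less abundant, showed the same. Clone E3 had 37.1 and 34.6 CPM at 74 h, against 133 and 108 CPM at 0 h. Clone H12 had 38.1 and 43.0 CPM at 74 h, against 95.8 and 117.5 CPM at 0 h, and G4 had 42.5 and 46.6 CPM at 74 h, against 96.4 and 92.1 CPM at 0 h. Again each library at 74 h lay below the lowest at 0 h. Averaged over the clones both fell. The log2 fold changes of Gas5 were -0.76 ± 0.08, -1.27 ± 0.08 and -1.41 ± 0.08 at 24, 48 and 74 h, and those of Zfas1 were -0.91 ± 0.08, -1.39 ± 0.08 and -1.41 ± 0.08 (edgeR adjusted p at most 2.6e-09). Gas5 was called lower already at 6 h (-0.24 ± 0.08, adjusted p = 0.0345), a call lost without any 1 of 8 of the 12 libraries (adjusted p up to 0.181; exceptions were E3 replicate 2 at 0 h, E3 replicate 1 at 6 h and H12 replicate 1 at 0 and 6 h).

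Snhg12 was called higher at the start of the course, before its fall. Snhg12 in E3 libraries was at 202 and 132 CPM at 2 h, against 141 and 104 CPM at 0 h. Snhg12 in H12 libraries was at 134 and 163 CPM at 2 h, against 96.5 and 114 CPM at 0 h. For G4 libraries of Snhg12, the values were 126 and 150.0 CPM at 2 h, against 102 and 104 CPM at 0 h. The libraries overlapped between the times in E3 and not in H12 or G4. Snhg12 rose at 2 h (0.46 ± 0.12, adjusted p = 0.00798), a call lost without E3 replicate 1 at 2 h (0.35, adjusted p = 0.0585), and it was the 1 member called at that time. From 24 h on both Snhg12 and Snhg1 fell. The log2 fold changes of Snhg12 were -0.85 ± 0.13, -1.54 ± 0.13 and -1.60 ± 0.13 at 24, 48 and 74 h, and those of Snhg1 were -0.44 ± 0.08, -1.04 ± 0.08 and -1.21 ± 0.08 (edgeR adjusted p at most 3.51e-05). At 74 h Snhg1 had 109 and 82.5 CPM in E3, 94.4 and 79.8 CPM in H12 and 91.6 and 102 CPM in G4, against 190.2 to 256 CPM over the clones at 0 h, with no overlap.

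Snhg11 rose in the clones from 6 h on. In E3 it had 93.0 and 89.8 CPM at 24 h, against 38.3 and 45.2 CPM at 0 h. In H12 it had 133 and 121 CPM at 24 h, against 48.4 and 58.2 CPM at 0 h, and G4 had 61.9 and 75.3 CPM at 24 h, against 32.0 and 39.2 CPM at 0 h. Each library at 24 h lay above those at 0 h. The rise was 0.42 ± 0.10 (adjusted p = 0.00193) at 6 h, 1.11 ± 0.10 (adjusted p = 3.78e-11) at 24 h, 0.98 ± 0.10 (adjusted p = 1.56e-10) at 48 h and 0.29 ± 0.10 (adjusted p = 0.00922) at 74 h. At 74 h the libraries lay between 46.5 and 62.0 CPM and overlapped those at 0 h. Within clones, the rise at 74 h was called in G4 (0.51 ± 0.17, adjusted p = 0.0118), a call lost without G4 replicate 1 at 0 h (adjusted p = 0.114), and not in E3 or H12.

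**Figure D3:**
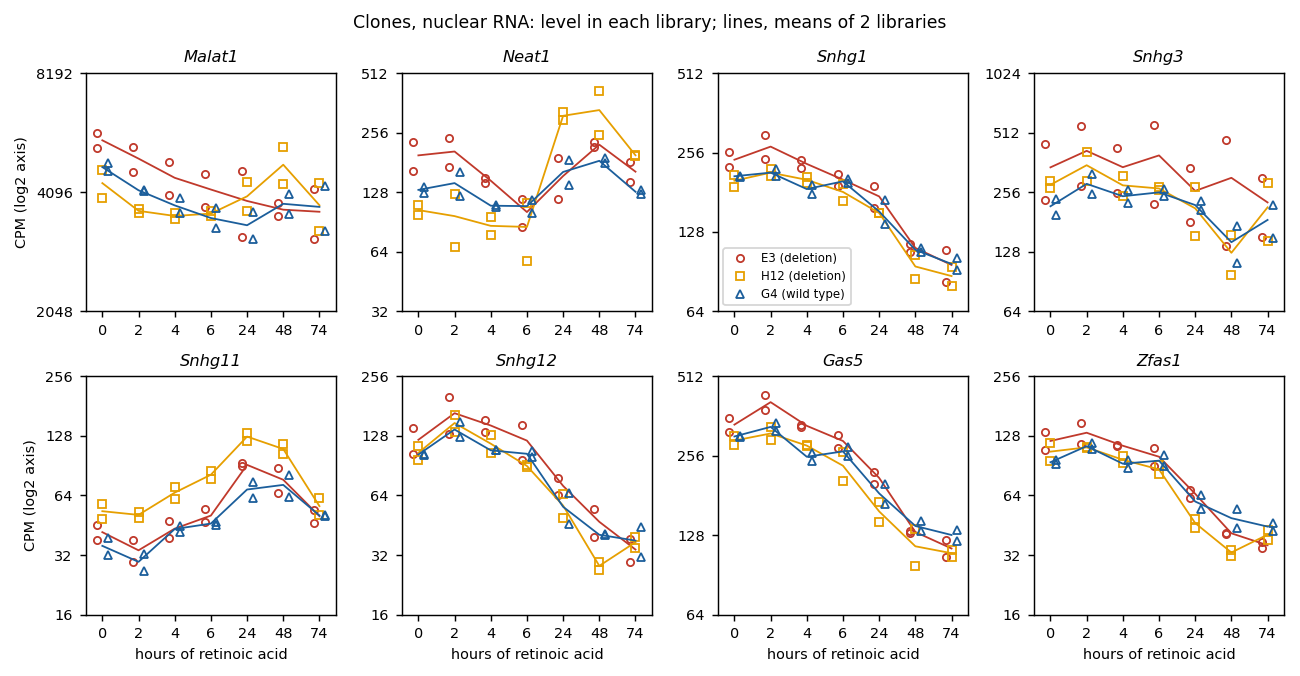
Level of each member in every nuclear RNA library of clones E3, H12 and G4 (y axis, CPM on a log2 axis) by hours of RA (x axis, times evenly spaced); lines are means of 2 libraries. Snhg1, Snhg12, Gas5 and Zfas1 fall in each clone, Snhg11 stands higher in H12 up to 48 h, and the E3 libraries of Snhg3 lie far apart.

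Snhg3 scattered between libraries in nuclear RNA, and its libraries at 74 h and 0 h overlapped. Clone E3 had 303 and 152 CPM at 74 h, against 451.5 and 233 CPM at 0 h. Clone H12 had 285 and 145 CPM at 74 h, against 268 and 291 CPM at 0 h. For G4 libraries of Snhg3, the values were 149.6 and 221.5 CPM at 74 h, against 238 and 197 CPM at 0 h. This overlap was seen in each clone. Snhg3 was not called at any time over the clones, with -0.64 ± 0.30 (adjusted p = 0.0596) at 48 h and -0.40 ± 0.30 (adjusted p = 0.228) at 74 h. Replicate 1 of E3 was the higher of the pair at each of the 7 times, with 564 and 223 CPM at 6 h. Rmrp, the RNA of a ribonuclease complex, which was chosen after values were seen, was higher in the same replicate, with 1334 and 955.5 CPM at 6 h. In SCC1-mAID cells given auxin, Snhg3 had 1103, 366 and 635 CPM, Rmrp 2391, 754.5 and 1176 CPM and Rpph1, the RNA of ribonuclease P, 1442, 344 and 464 CPM. Replicate 1 there was the highest of the 12 libraries for Snhg3 and Rmrp. The part of such short RNAs in the level of Snhg3 was not tested.

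The 7 snoRNA genes inside the hosts fell in both RA courses. Reads on Snord22 are also counted within the span of Snhg1 in nuclear RNA, where they were 14.6% of its reads at the median of 42 clone libraries for 4.44% of the span. Snora61 made up 20.6% of the reads of Snhg12 for 2.64% of its span, Snora44 8.16% for 4.99%, Snord99 6.40% for 2.39% and Snora16a 3.99% for 5.79%. Snord12 made up 9.23% of the reads of Zfas1 for 2.25% of its span, and Snord47 4.15% of those of Gas5 for 1.93%. Of these 7 shares, 6 thus exceeded the share of span, and that of Snora16a did not. At 72 h in E14 cells, where host counts are exonic, all 7 snoRNA genes were called lower, where 29.3% of all genes were. The log2 fold changes were -3.10 ± 0.37 for Snord47, -2.64 ± 0.41 for Snord12, -2.60 ± 0.29 for Snora61, -2.57 ± 0.34 for Snord99, -2.52 ± 0.37 for Snora16a, -2.03 ± 0.30 for Snora44 and -1.85 ± 0.22 for Snord22 (edgeR adjusted p at most 9.04e-06). At 74 h in the clones all 7 were called lower as well, where 37.2% of all genes were, from -0.90 ± 0.16 for Snord22 to -2.24 ± 0.22 for Snord47 (edgeR adjusted p at most 0.000263). Reads on unspliced introns cannot be told apart from reads on the snoRNA. The exon length inferred for Gas5 in E14 cells was 2554 of 3372 bases, against 476 of 2840 for Snhg1. Whether the counted exons of Gas5 take in its snoRNAs was not checked.

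**Figure D4:**
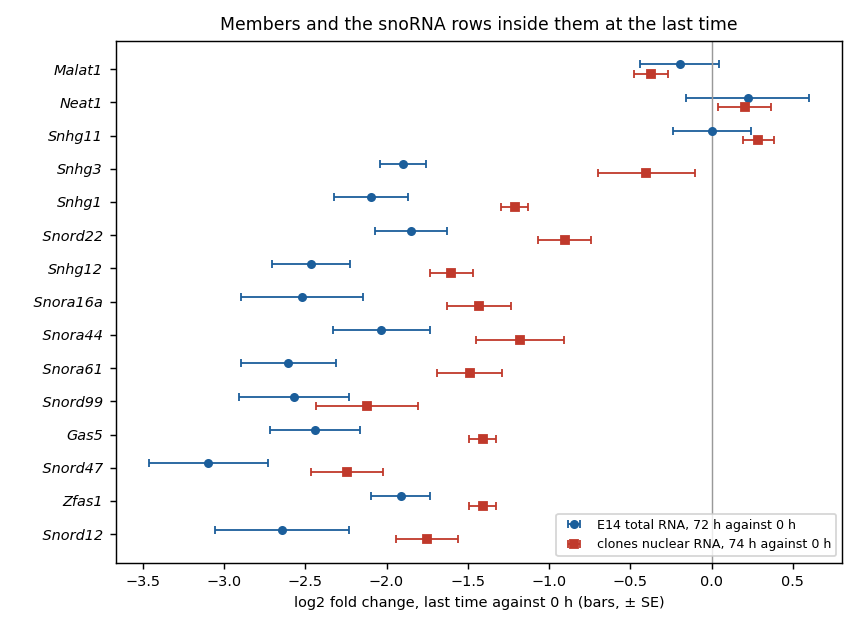
Log2 fold change of the members and of the snoRNA genes inside them at the last time against 0 h (x axis; points, bars ± SE), in E14 total RNA at 72 h and in nuclear RNA averaged over the clones at 74 h. Snhg1, Snhg12, Gas5, Zfas1 and the 7 snoRNA genes lie left of 0 in both sets, and Snhg3 is at -1.90 in E14 cells and -0.40 in the clones.

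The starts of 3 hosts lie near that of a gene on the other strand, and shared reads cannot be told apart if counting ignored strand. Slc3a2, a subunit of amino acid transporters, starts 118 bases from Snhg1. It was lower at 72 h in E14 cells (-1.35 ± 0.17, adjusted p = 3.11e-07) and at 74 h in the clones (-1.12 ± 0.09, adjusted p = 1.18e-12). Its response to RA was weaker in the deletion clones than in G4, by 0.79 ± 0.19 (adjusted p = 0.00882), whereas that of Snhg1 was -0.16 ± 0.17 (adjusted p = 0.618). Znfx1, a helicase gene, overlaps Zfas1 by 82 bases, with starts 81 bases apart, and was lower too (-1.05 ± 0.16 at 72 h in E14 cells and -0.76 ± 0.09 at 74 h in the clones; adjusted p = 4.21e-06 and 2.85e-09). Zbtb37, a zinc finger gene whose start lies 907 bases from that of Gas5, changed by -0.53 ± 0.22 and -0.76 ± 0.10 (adjusted p = 0.0393 and 9.91e-08).

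In SCC1-mAID nuclear RNA, no member was called after 4 h of RA, and 1 was called after 6 h of auxin. With RA against untreated cells, none of the 8 was called, where 2.57% of all genes were; 1 of the 8 had an unadjusted p below 0.05 in edgeR's test. That member was Zfas1, at 0.38 ± 0.15 (adjusted p = 0.286), and DESeq2 called none. With auxin against untreated cells, 1 of the 8 was called, Zfas1, where 0.235% of all genes were. The members' median change with auxin was 0.66, beside 0.00 over all genes, and 7 of 8 had an unadjusted p below 0.05, as had 1683 of 14031 genes. All 8 fold changes were positive, also with the authors' size factors.

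Zfas1 had 149, 122 and 169.7 CPM with auxin, against 77.0, 85.1 and 95.7 CPM in untreated cells. Gas5 had 254, 280.2 and 474 CPM with auxin, against 155, 172 and 170.2 CPM in untreated cells. Snhg11 had 60.2, 71.9 and 74.7 CPM with auxin, against 43.1, 42.4 and 34.2 CPM in untreated cells. In these 3, every auxin library lay above every untreated one, and auxin replicate 3 was the highest. Zfas1 rose (0.77 ± 0.15, adjusted p = 0.0354); the changes of Gas5 (1.02 ± 0.22, adjusted p = 0.0571) and Snhg11 (0.79 ± 0.19, adjusted p = 0.0843) did not pass in this test and did by DESeq2 (adjusted p = 0.00301 and 0.0169). The call of Zfas1 was lost without auxin replicate 1 (adjusted p = 0.0554) or 3 (0.0724), without untreated replicate 1 (0.252), 2 (0.16) or 3 (0.0949), and with the authors' size factors (1); its adjusted p ran from 0.000276 to 1 over 13 alternatives. The remaining changes were 0.70 ± 0.20 for Snhg1, 0.63 ± 0.32 for Snhg3, 0.58 ± 0.17 for Snhg12, 0.53 ± 0.23 for Malat1 and 0.46 ± 0.21 for Neat1 (edgeR adjusted p between 0.143 and 0.457).

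Auxin plus RA gave levels near those with RA. None of the 8 was called between these groups, where 0.363% of all genes were, and none had an unadjusted p below 0.05 in edgeR's test; DESeq2 called none. Zfas1 had 102, 111 and 97.3 CPM with auxin plus RA, against 105, 122.5 and 107 CPM with RA. Gas5 had 210.0, 242 and 137 CPM with auxin plus RA, against 221.5, 235 and 205 CPM with RA. The libraries overlapped in both genes, and the changes were -0.10 ± 0.15 (adjusted p = 0.9) for Zfas1 and -0.16 ± 0.21 (adjusted p = 0.897) for Gas5.

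Set against auxin alone, auxin plus RA gave lower values in all 8 members and no call, where 2.64% of all genes were called; 7 of 8 had an unadjusted p below 0.05 in edgeR's test, and DESeq2 called 2, Gas5 and Zfas1. This comparison shares the auxin libraries with the one against untreated cells, and the 2 sets of values are not independent. They were -0.77 ± 0.21 (adjusted p = 0.0679) for Gas5, -0.50 ± 0.14 (adjusted p = 0.0831) for Zfas1 and -0.67 ± 0.21 (adjusted p = 0.122) for Neat1. Without auxin plus RA replicate 2, 4 members were called, and without auxin replicate 1, 1 was. For Snhg3 the change of -0.46 ± 0.32 turned to 0.03 without auxin replicate 1. Within Neat1, the part shared by both forms fell (-0.84 ± 0.17, adjusted p = 0.0121), and the part beyond the short form did not pass (-0.21 ± 0.38).

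The difference between the responses to RA with and without auxin was negative in all 8 members, and none was called; no gene of 14031 was (0%), with 974 at an unadjusted p below 0.05 in edgeR's test, 5 members among them. It was -0.88 ± 0.21 (adjusted p = 0.54) for Zfas1 and -1.18 ± 0.30 (adjusted p = 0.568) for Gas5, and DESeq2 called 1 member. The summed pluripotency markers were 2193 to 2642 CPM with auxin plus RA, 2735 to 2910 CPM with auxin, 2193 to 2545 CPM with RA and 3081 to 3287 CPM in untreated cells. Under the authors' size factors, which ran from 0.64 to 2.18 times those of TMM in this set, the median of all genes moved to 0.18 for RA, -0.33 for auxin plus RA against RA and -0.14 against auxin. For the difference between the responses it moved to -0.33. The calls over all genes then were 72 higher and 0 lower for RA, in place of 260 and 101, and 2 and 1 for auxin, in place of 14 and 19. They were 2 and 2 for auxin plus RA against RA, in place of 6 and 45, and 42 and 5 against auxin, in place of 256 and 114. For Neat1 and Snhg3 the sign of the change with RA turned under this scaling, to 0.23 and 0.17.

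**Figure D5:**
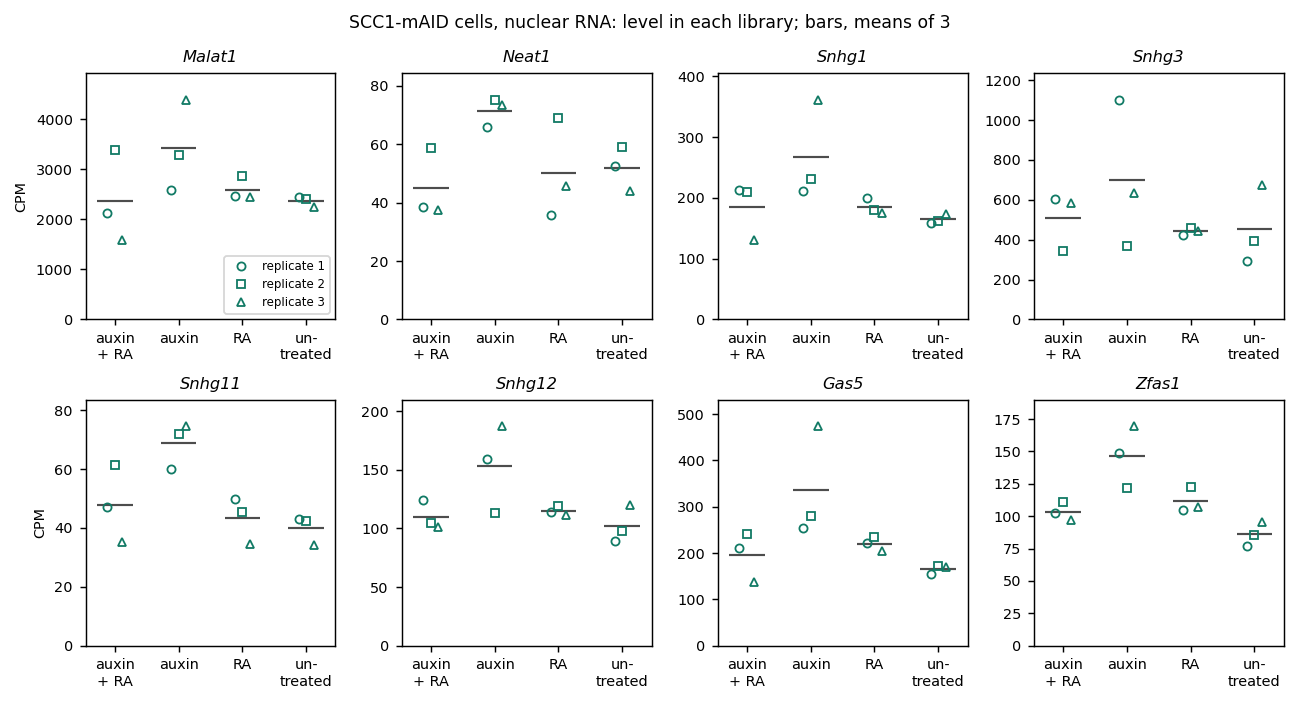
Level of each member in every SCC1-mAID nuclear RNA library (y axis, CPM from 0) by treatment (x axis: auxin plus RA, auxin, RA, untreated); bars are means of 3 libraries. The auxin libraries of Zfas1, Gas5 and Snhg11 lie above all untreated ones.

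Between clones, averaged over the 7 times, Snhg11 was higher in H12 than in both other clones, and the other called members differed by less. E3 against G4 gave no call among the members (12.7% of all genes called), with 7 of 8 at an unadjusted p below 0.05 in edgeR's test. All 8 changes were positive, from 0.07 ± 0.05 for Zfas1 to 0.56 ± 0.19 for Snhg3. DESeq2 called 3, Neat1, Snhg1 and Snhg3, and a fit with a replicate block called more than 3, as the last section gives. Leaving out 1 library gave up to 4 calls: 4 without E3 replicate 2 at 24 h, 3 without E3 replicate 2 at 0 or 2 h, 2 without E3 replicate 2 at 6, 48 or 74 h, E3 replicate 1 at 48 h or G4 replicate 2 at 24 h, and 1 without G4 replicate 1 at 4 h or replicate 2 at 74 h. H12 against G4 gave 2 calls (44.5% of all genes), Snhg11 higher (0.64 ± 0.06, adjusted p = 9.84e-10) and Zfas1 lower (-0.14 ± 0.05, adjusted p = 0.0333). The call of Zfas1 was lost (adjusted p up to 0.101) without G4 replicate 1 at 0, 6 or 48 h, G4 replicate 2 at 2, 24 or 74 h, H12 replicate 1 at 0, 2 or 4 h, or H12 replicate 2 at 6, 24 or 48 h.

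Snhg11 was called higher in H12 than in both other clones. At 0 h it had 48.4 and 58.2 CPM in H12, against 32.0 and 39.2 CPM in G4, and at 24 h 133 and 121 CPM in H12, against 61.9 and 75.3 CPM in G4. The libraries did not overlap at either time. E3 against H12 gave 5 calls (40.9% of all genes): Snhg11 was lower in E3 (-0.48 ± 0.06, adjusted p = 2.21e-07), and Gas5 (0.26 ± 0.05, adjusted p = 0.000199), Snhg1 (0.22 ± 0.05, adjusted p = 0.00144), Snhg12 (0.29 ± 0.08, adjusted p = 0.00497) and Zfas1 (0.21 ± 0.05, adjusted p = 0.00196) were slightly higher. At each time from 0 to 48 h, both H12 libraries of Snhg11 lay above those of E3 and G4, and at 74 h, with 62.0 and 51.1 CPM in H12 and 46.5 and 54.1 CPM in E3, against 51.0 and 50.4 CPM in G4, they overlapped those of E3 and the lower lay beside those of G4. Cell type markers also differed between these clones. At 0 h the neural progenitor markers summed to 26.2 to 29.2 CPM in H12, against 68.1 to 135 CPM in G4, the fibroblast markers to 17.3 to 22.8 CPM in H12, against 49.0 to 53.3 CPM in G4, and the pluripotency markers to 2313 to 2334 CPM in H12, against 1985 to 2032 CPM in G4. Averaged over the 7 times, H12 against G4 gave 3 of 4 neural markers lower, and 4 of 7 pluripotency markers higher and 1 lower. The part of these markers in the level of Snhg11 was not tested.

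Between the deletion clones and G4, no difference in the response at 74 h passed the test in any member. None of the 8 was called, where 6.95% of all genes were, and 1 had an unadjusted p below 0.05 in edgeR's test; DESeq2 called none. That member was Zfas1 (-0.49 ± 0.18, adjusted p = 0.0884), whose response was -1.75 ± 0.15 in E3, -1.39 ± 0.15 in H12 and -1.08 ± 0.15 in G4. For Gas5 the response was -1.56 ± 0.14 in E3, -1.42 ± 0.14 in H12 and -1.24 ± 0.14 in G4, and the difference between genotypes was -0.25 ± 0.17 (adjusted p = 0.402).

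Genes that work with these RNAs were counted in lists by role. Of the 14 tested other noncoding snoRNA hosts, 12 fell and 1 rose at 72 h in E14 cells (median -1.88), with Dancr at -2.90 ± 0.24 (adjusted p = 3.35e-10) and Snhg18 at 3.21 ± 0.43 (adjusted p = 5.14e-07). In the clones at 74 h, 11 fell and 1 rose (median -0.93), with Snhg4 at -1.68 ± 0.11 (adjusted p = 7.69e-15). Protein-coding hosts were more mixed: 9 of 17 fell and 2 rose in E14 cells (median -0.30), and 11 fell and 2 rose in the clones (median -0.50). The ribosomal protein genes Rpl3 and Rpl23a were among those that fell, at -2.57 ± 0.33 and -2.14 ± 0.18 in E14 cells and -1.31 ± 0.09 and -1.63 ± 0.08 in the clones (edgeR adjusted p at most 1.37e-06). These counts stand beside 29.3% of all genes lower in E14 cells and 37.2% in the clones.

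The 8 tested snoRNP core proteins, which bind snoRNAs and carry out the modification, all fell in both sets (median -0.98 in E14 cells and -0.96 in the clones). Nop56, a core protein of box C/D particles, changed by -1.45 ± 0.14 in E14 cells (adjusted p = 2.35e-09), and Nop10, one of box H/ACA particles, by -1.64 ± 0.23 in the clones (adjusted p = 4.46e-07). Of 10 nonsense-mediated decay factors, 7 fell and 1 rose in E14 cells (median -0.36), and 8 fell in the clones (median -0.44). Over all genes, 29.3% were lower and 30.4% higher in E14 cells, and 37.2% lower and 36.5% higher in the clones. Smg8, a regulator of the decay kinase SMG1, fell, with -0.91 ± 0.11 and -0.79 ± 0.12 in E14 cells and the clones (edgeR adjusted p = 1.48e-07 and 4.93e-07).

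Counts among proteins of the bodies that Neat1 and Malat1 belong to stand beside 29.3% of all genes lower and 30.4% higher in E14 cells, and 37.2% lower and 36.5% higher in the clones. Of 12 paraspeckle proteins, 3 fell and 2 rose in E14 cells (median 0.04), and 4 fell and 6 rose in the clones (median 0.16). Rbm14, a paraspeckle protein, fell, with -0.69 ± 0.14 and -0.96 ± 0.09, and Hnrnph3 rose, with 0.71 ± 0.18 and 0.87 ± 0.08 in E14 cells and the clones (edgeR adjusted p at most 0.00156). Of 10 nuclear speckle proteins, 5 fell and none rose in E14 cells (median -0.25), and 4 fell and 1 rose in the clones (median -0.09). The splicing factor gene Srsf6 was lower in both, at -0.57 ± 0.12 and -0.35 ± 0.06 (edgeR adjusted p = 0.000165 and 1.26e-05). Srsf10 was lower in E14 cells, at -0.60 ± 0.12, and Srsf1 was higher in the clones, at 0.34 ± 0.08 (edgeR adjusted p = 0.000125 and 0.00044). Of 10 other nuclear long noncoding RNAs, 3 fell and 1 rose in E14 cells and 4 fell and 3 rose in the clones, with Airn at 3.05 ± 0.53 and 4.41 ± 0.18 and Pvt1 at -2.65 ± 0.31 and -2.63 ± 0.15 (edgeR adjusted p at most 2.04e-05).

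With auxin, where 0.235% of all genes were called, 2 of 13 tested other noncoding hosts rose and none fell (median 0.64): Snhg6 at 1.01 ± 0.20 and Snhg15 at 0.77 ± 0.15 (edgeR adjusted p = 0.0448 for both). The median of the 17 protein-coding hosts was 0.04, with 1 call, Rpl3 at 1.07 ± 0.17 (adjusted p = 0.0155). In auxin plus RA against auxin, which shares the auxin libraries and where 2.64% of all genes were called, 2 of 13 noncoding hosts fell (median -0.50), Rian and Snhg14, and 1 coding host of 17 (median 0.14), Rpl3, fell, at -0.88 ± 0.17 (edgeR adjusted p = 0.00624). With RA alone, where 2.57% of all genes were called, 1 noncoding host fell, Rian at -0.63 ± 0.16 (adjusted p = 0.0408). No paraspeckle, speckle, snoRNP or decay gene of these lists was called in any of these SCC1-mAID comparisons.

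The genes whose pattern over the 21 groups of clone and time was most like a member's were found by Pearson's r of mean log2 CPM. For Gas5 they were Zfas1, Nop58 and Eif4a2 (r = 0.987 each), for Zfas1 they were Gas5 (0.987), Snhg12 (0.982) and Rpl27a (0.981), and for Snhg1 they were Rpl30 and Gm12191 (0.989 each) and Rpl23a (0.987). Snhg12 was nearest to Snora61 (0.986), whose reads lie within it, 1110038B12Rik (0.986) and Dancr (0.985). Snhg3 was nearest to Atg16l1 (0.959), Snord55 (0.936) and Snord15b (0.919), Snhg11 to Skap1 (0.943), Dmxl2 (0.94) and Slc4a8 (0.938), Neat1 to Tshr (0.875), Ddit4l (0.858) and Itga4 (0.854), and Malat1 to Hps3 (0.928), Tlk1 (0.873) and Gtf3c3 (0.848). The r between Snhg1, Snhg12, Gas5 and Zfas1 ran from 0.96 to 0.99, whereas Snhg11 had -0.49 to -0.63 with these 4 and Neat1 -0.45 to -0.58. Groups of 1 clone share their time course, so these values describe likeness and carry no test.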

How the data were processed

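Per the labels' protocols, total RNA (25 E14 libraries) or nuclear RNA (12 SCC1-mAID and 42 clone libraries) was depleted of ribosomal RNA, and directional paired-end libraries were made from stem cells mixed with Drosophila SG4 cells for calibration. The submitters' processing notes name STAR, Bowtie2, SAMtools and DESeq2 and the builds mm10 and dm6, with no role or version. The deposited signal per transcript is a read count divided by a size factor set by the authors. Whole reads were recovered from its steps within 0.1 read, for at least 99.9966% of values in the E14 table and 100% in the others. The deposited FPKM values and the authors' gene classes were read too. The exon lengths behind the E14 levels per kilobase were inferred from the ratio of signal to FPKM, scaled to the span of Malat1. Transcripts of equal span had equal counts in 3729 of 3729 cases in the SCC1-mAID table and 3745 of 3745 in the clone table. In the E14 table they did in 666 of 3747, so nuclear reads were taken as counted with introns. The exons of these transcripts were not compared.

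Reads were fitted with edgeR 4.0.16 (robust quasi-likelihood, TMM, filterByExpr) in R 4.3.3, with 1 transcript per symbol, that with the highest mean share of reads, and p-values adjusted by Benjamini-Hochberg over 15084 E14, 14031 SCC1-mAID and 15923 clone genes. Each set was fitted whole, so that groups share 1 estimate of the spread. The standard error is the log2 fold change over the root of its F statistic, and CPM values carry TMM scaling. Precision is limited by 2 to 4 libraries a group. Tested on simulated data, the fit called 66% of genes with 2-fold and 94% with 4-fold changes in E14 cells at 72 h (15084 genes), and 77% and 99% with auxin (14031 genes). For clone G4 at 74 h, simulated and fitted on the G4 libraries alone (15073 genes), it called 72% and 91%. Each simulation changed 100 genes at each size. Far more were called in E14 cells at 72 h and in G4 at 74 h. The adjustment of p depends on that share, so these percentages need not hold there. Alternatives were the authors' size factors, no filter, DESeq2 1.42.0, limma 3.58.1 on log2(signal + 1), a replicate block, the longest transcript, the compared groups only, each library left out and, chosen after seeing the data, E14 replicates 3 and 4 only. The members and lists were chosen with earlier results of these data known. Named are the 8 members, genes that overlap a member or start within 5000 bases and the 3 genes nearest in pattern. Per list, the genes named are among the 2 called with the largest changes at the last time and in each SCC1-mAID comparison. Names of SCC1-mAID transcripts were taken from the other tables by identifier.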

Additional observations from a re-analysis of the deposited data

Results flagged for a closer look

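In E14 cells at 72 h, replicate 2 stood apart from the other 3 libraries of its group by Dixon's test at the 95% level, with 9265 CPM of Malat1 and 109 CPM of Snhg11. For Snhg3, replicate 1 stood apart at 48 h with 54.6 CPM. Each test took 1 member in 1 group of 4 libraries. Chance alone would flag about 1 in 20 such tests, and 3 of 40 were flagged. The tests are not independent, since members share libraries, and the flags of Malat1 and Snhg11 fall on the same library. The response of Slc3a2, the gene that starts next to Snhg1, to 74 h of RA differed between the deletion clones and G4 by 0.79 on the log2 scale and between H12 and G4 by 0.91 (edgeR adjusted p = 0.00882 and 0.00557), and its fall was the smaller in the deletion clones.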

How the results depend on the processing

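Of 67 changes called in single members, 51 stayed called in the same direction under every alternative run. Over their 1173 values, 1095 did so, 78 no longer passed and 0 turned. The number of members called depended on the setting as follows, and the cause was not tested. For auxin against untreated cells, 1 in the reported fit became 0 with the authors' size factors, 4 with no filter, 3 with DESeq2, 0 with limma, 3 with the replicate block and 0 with the compared groups only. For auxin plus RA against auxin, 0 became 1 with no filter, 2 with DESeq2 and 1 with the block, for RA 0 became 1 with the compared groups only, and for the difference of responses 0 became 1 with DESeq2. In the clones, 1 at 4 h became 0 with the longest transcript and 2 with the compared groups only, and 4 at 6 h became 2 with no filter. E3 against G4 gave 1 with the authors' size factors, 3 with DESeq2, 1 with limma, 5 with the block and 1 with the compared groups only, in place of 0, and the deletion minus wild-type response gave 1 with the block, in place of 0. Leaving out single libraries gave 3 to 5 calls in E14 cells at 24 h, 6 to 7 at 48 h and 5 to 6 at 72 h, 0 to 1 with auxin and 0 to 4 for auxin plus RA against auxin. In the clones it gave 0 to 1 at 2 h, 0 to 1 at 4 h, 1 to 4 at 6 h, 6 to 7 at 48 h, 4 to 5 within E3, H12 and G4 each, 0 to 4 for E3 against G4, 1 to 3 for H12 against G4 and 5 to 6 for E3 against H12.

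Over all genes, counts that moved by more than 1.5 times were as follows. At 2 h in E14 cells 61 higher and 14 lower became 112 and 28 with DESeq2, 37 and 3 with limma, 103 and 25 with the block and 263 and 64 with replicates 3 and 4 only. With auxin, 14 and 19 became 70 and 83 with no filter, 81 and 105 with DESeq2, 32 and 66 with the block and 1 and 3 with the compared groups only. At 4 h in E14 cells 231 and 137 became 93 and 41 with limma and 529 and 603 with replicates 3 and 4 only, and at 6 h 326 and 271 became 160 and 166 with limma and 761 and 860 with those replicates. With RA in SCC1-mAID cells, 260 and 101 became 72 and 0 with the authors' size factors, 72 and 2 with limma and 490 and 272 with the compared groups only. Auxin gave 2 and 1 both with the authors' size factors and with limma. Auxin plus RA against RA gave 6 and 45, which became 2 and 2 with the authors' size factors, 10 and 77 with no filter, 13 and 83 with DESeq2 and 2 and 3 with limma. Against auxin, 256 and 114 became 42 and 5 with the authors' size factors, 48 and 2 with limma and 122 and 22 with the compared groups only. The difference of responses gave 0 and 0, which became 0 and 3 with no filter and 0 and 5 with DESeq2, and the deletion minus wild-type response gave 609 and 498, which became 1243 and 1028 with the block. The replicate numbers were not taken to pair the libraries. No label says that a number marks a shared batch, and not every correlation of same-numbered deviations was over 0.1. They ran from -0.14 to 0.51 in E14 cells, -0.34 to 0.32 in SCC1-mAID cells, -0.03 to 0.25 in E3 (24 of 42 over 0.1), -0.04 to 0.26 in H12 (18 of 42) and 0.03 to 0.27 in G4 (28 of 42). With 2 libraries a group in the clones, correlations of differently numbered libraries are the same values with the sign turned and add nothing. For the same reason the correlations of replicate 1 recur for replicate 2, so each value stands 2 times among the 42. In G4 every same-numbered one was positive, a hint from the data and not from the design. The medians of the same-numbered correlations were 0.11 in E3, 0.03 in H12 and 0.12 in G4. The cut-off of 0.1 is no test of pairing, and a shared batch by number was not tested.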
